A study of Mus musculus with 48 samples.

Results

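Colony-stimulating factors and their receptors form the set described here: the ligands Csf1, Il34, Csf2 and Flt3l, and the receptors or receptor chains Csf1r, Csf2ra, Csf2rb, Csf3r and Flt3. They were taken by gene symbol, whatever their values, and make up 9 of the 20314 genes listed in the 2 count tables of the series. All 9 are listed among the 20300 genes of the whole-tumor table. In the table of CD11b+ cells, which lists 14363 genes, 8 were found, and Csf2 was not analysed there. They differed sharply in where they were found: Csf1r in microglia and macrophages, Il34 in mural cells, Csf2 in T cells, Flt3 in dendritic cells and Csf3r in neutrophils, microglia and macrophages. None passed the test of SELP knockdown in any of the 7 cell classes tested.

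These cytokines control how many myeloid cells a tissue holds and what state they are in. CSF1 and IL-34 both bind the receptor tyrosine kinase CSF1R, on which microglia and most macrophages depend for survival, and IL-34 made by neurons is a main source of that signal in the healthy brain. CSF2, or GM-CSF, is made largely by activated lymphocytes and binds a specific alpha chain, encoded by Csf2ra, together with a shared beta chain, encoded by Csf2rb, which signals through JAK2 and STAT5. CSF3R is the receptor of G-CSF, the main growth factor of neutrophils. FLT3 and its ligand govern the development of dendritic cells. CSF1R is the target of inhibitors that deplete tumor-associated macrophages.

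In the study, GL261 cells, a murine glioblastoma (GB) line, carried either a short hairpin RNA against SELP, the gene of P-selectin (shSELP), or a negative-control hairpin (shNC), and were injected into the striatum of male C57BL/6 mice aged 6 weeks. Every group therefore carried an shRNA, and the host cells of all groups were unmodified. The whole-tumor libraries (2 shNC, 2 shSELP) were prepared at day 16 and held equal amounts of CD11b+ cells, other CD45+ cells and what was left of the suspension, so that shares of cells describe the mixture and not the tumor. The CD11b+ libraries (1 shNC, 1 shSELP) were prepared at day 21 by magnetic selection. Brains were pooled in each group, the labels do not say that libraries came from separate animals, and p-values measure only the spread between these libraries.

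After filtering, 8726 whole-tumor cells and 5535 CD11b+ cells were kept, with median unique molecular identifiers (UMIs, each an independent captured transcript) of 6164 to 9880 and of 3737 to 4209 per cell over libraries. Libraries shared 0 to 3 cell barcodes. Selp gave 1, 1, 0 and 1 UMIs in the tumor cells of the 2 shNC and the 2 shSELP libraries, so the knockdown could not be checked at this depth. The first shSELP library stood apart in its cells: 16.1% were endothelial and 17.9% microglial, against 1.01% to 3.59% and 6.23% to 10.8% in the other libraries. It also held 20 of the 22 fibroblasts and 81 of the 125 mural cells. Levels of fibroblasts over all libraries therefore rest mostly on it.

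Cells were grouped without using the 9 genes, and 15 classes were named from fixed markers as "X-like": macrophage (3094 cells), T cell (1756), microglia (951), tumor (925), dendritic cell (614), endothelial (484), NK cell (253), mural (125), B cell (90), neutrophil (60), oligodendrocyte (57), plasmacytoid dendritic cell (34), plasma cell (32), fibroblast (22) and basophil or mast cell (17). Clusters with markers of more than 1 class, or with under 3 detected markers, stayed unnamed (212 cells). Levels are given as CPM, the UMIs of the gene relative to those of all genes, both summed over the cells of a class. A level over all 4 libraries carries an exact 95% Poisson interval, which covers counting error only. No neuron class was found, so neurons, the known brain source of IL-34, were outside what could be measured.

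**Figure D1:**
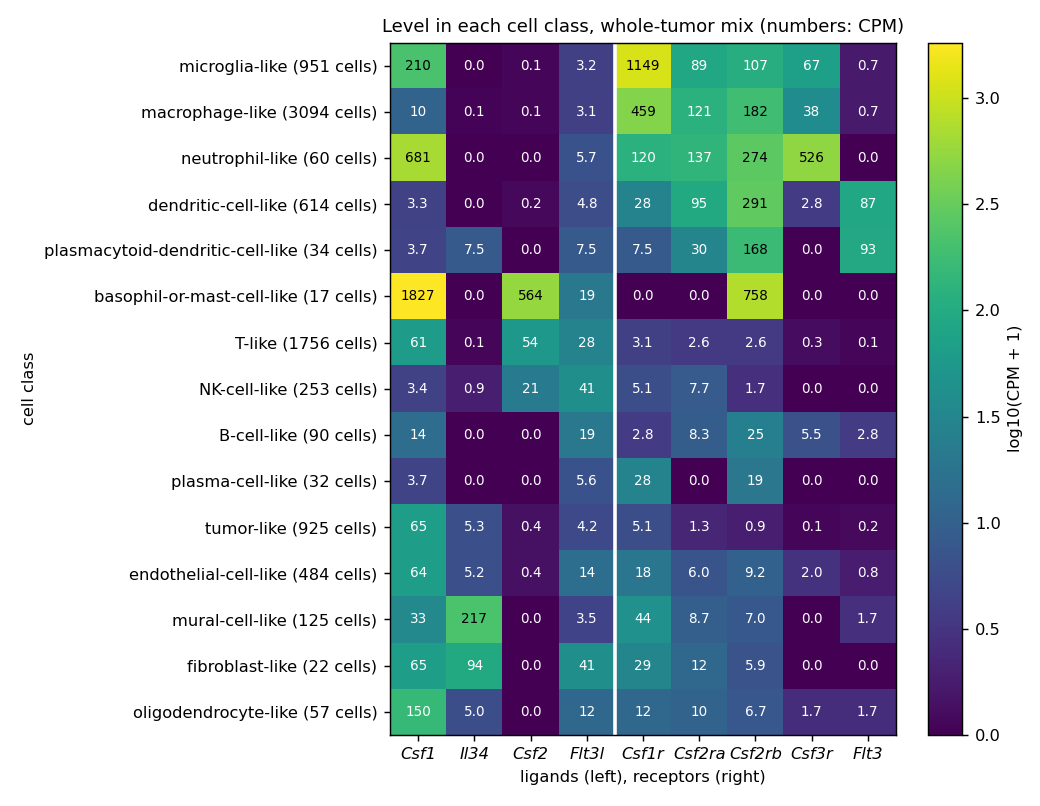
Level of the 9 genes (columns, ligands left of the white line, receptors right) in the 15 named cell classes of the whole-tumor mix (rows), over all 4 libraries. Color shows log10(CPM + 1) and the printed numbers are CPM. Csf1r reached 1149 CPM in microglia-like cells, Il34 217 CPM in mural-cell-like cells, and Csf2 was near 0 outside lymphocytes and 17 basophil- or mast-cell-like cells.

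Csf1r, the receptor of CSF1 and IL-34 (chromosome 18, 61100598 to 61132149, plus strand), was highest in microglia-like cells. Its level there was 1149 CPM (95% interval 1127 to 1171), against 459 CPM (452 to 465) in macrophage-like cells. The lowest microglial library stood at 829 CPM and the highest macrophage library at 494 CPM, so the 2 classes did not overlap. Neutrophil-like cells came next at 120.1 CPM (74.3 to 183.6). Dendritic-cell-like cells were at 27.7 CPM, and the ranges of mural, fibroblast-like, plasma-cell-like, dendritic and endothelial cells could not be told apart. The first shSELP library gave 23 of the 25 mural UMIs and all 5 fibroblast-like UMIs of Csf1r. With each cell thinned to 2000 UMIs, Csf1r was seen in 84.2% (exact 95% interval 81.4 to 86.7) of microglia-like and 56.3% (54.5 to 58.0) of macrophage-like cells, against 0.297% of T-like cells, which should lack it. That depth was reached by 770 of 951, 3048 of 3094 and 1683 of 1756 cells. Unthinned, the shares were 83.3%, 93.5% and 2.16%, at median depths of 7342, 12144 and 5860 UMIs.

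Within microglia, Csf1r differed by cluster. The microglial cluster led by Siglech, a gene of resting microglia, stood at 1813 CPM. The clusters led by Cxcl13 and by Cst7, a gene of microglia in disease, stood at 759 and 751 CPM. Among macrophage-like clusters the level ran from 278 CPM, in one of the 2 clusters led by Chil3, a gene of recently arrived monocytes, to 489 CPM in the cluster led by Inhba. An unnamed cluster of 32 cells led by Ace had 777 CPM.

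Of the 30260 Csf1r UMIs in the mix, most lay in macrophage-like cells, and microglia-like cells held 35.7%. That division moved with the make-up of each library. The microglial part was 17.5% and 31.5% for shNC and 63.2% and 26.6% for shSELP. Over all cells of a library, Csf1r was at 281 and 264 CPM in shNC and at 481 and 375 CPM in shSELP, values that add the share of each class to its level.

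Csf1, which encodes CSF1 or M-CSF (chromosome 3, 107741048 to 107760469, minus strand), gave UMIs in all 15 classes, at levels that differed widely. Plasmacytoid dendritic cells had 1 UMI and plasma cells 2, under the floor of 3 UMIs. The 17 basophil- or mast-cell-like cells had 1827 CPM (1477 to 2236), from 94 UMIs in 16 of them. The 60 neutrophil-like cells had 681 CPM (564 to 814), ranging from 314 CPM in the first shSELP library to 1175 CPM in the second. Microglia-like cells followed at 210.5 CPM (201.3 to 220.0) and oligodendrocyte-like cells at 150.3 CPM (120.9 to 184.8). Tumor-like (64.8 CPM), fibroblast-like, endothelial (64.2 CPM) and T-like cells (61.5 CPM) did not differ beyond the spread of their libraries. Macrophage-like cells had 10.0 CPM and dendritic-cell-like cells 3.34 CPM.

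Microglial Csf1 was highest in the same cluster as Csf1r, though the other clusters also held it. The Siglech cluster had 343 CPM of Csf1, the Cst7 cluster 137 CPM and the Cxcl13 cluster 102 CPM. Among thinned microglia-like cells, Csf1 was seen in 25.6% of the 648 cells with a Csf1r UMI and in 13.9% of those without. In macrophage-like cells Csf1 was seen in 1.57% of thinned cells. The sources of Csf1 UMIs differed by library. Microglia-like cells held 28.2% and 37.6% in shNC and 64.9% and 41.9% in shSELP, and the first shSELP library supplied 740 of their 1980 UMIs. Tumor-like cells held 29.5% and 26.1% against 4.29% and 3.58%, and T-like cells 21.6% and 10.9% against 8.33% and 32.1%. Macrophage-like cells, 35.5% of all cells, held 5.26% to 12.9%.

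Il34, the second ligand of CSF1R (chromosome 8, 110741829 to 110805924, minus strand), was a gene of mural cells, the pericytes and smooth muscle cells of vessels. It reached 217 CPM (180.3 to 258.5) in mural-cell-like cells and 93.9 CPM (53.7 to 152.5) in fibroblast-like cells. The first shSELP library gave 12 of the 16 fibroblast-like UMIs. Next in order stood plasmacytoid dendritic cells with 2 UMIs, then tumor-like cells at 5.30 CPM. In thinned cells, Il34 was seen in 41.8% (31.9 to 52.2) of mural-cell-like cells and in 0.0328% of macrophage-like cells, and unthinned in 51.2% and 0.0970% at median depths of 2802 and 12144 UMIs. It gave 0 UMIs in 951 microglia-like cells, whose floor of 3 UMIs is 0.319 CPM.

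The Il34 signal was counted from 251 UMIs in all, and its sources differed by library. The shNC libraries had 5 and 11 mural cells, the shSELP libraries 81 and 28. Mural cells held 27.7% and 28.9% of Il34 UMIs in shNC and 57% and 65.2% in shSELP, while tumor-like cells held 53.2% and 50% against 3% and 12.1%. The level within mural cells was 384 and 113 CPM in shNC and 246 and 206 CPM in shSELP, so the groups overlapped. An unnamed cluster of 73 cells led by Igfbp5 also had 48.0 CPM.

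**Figure D2:**
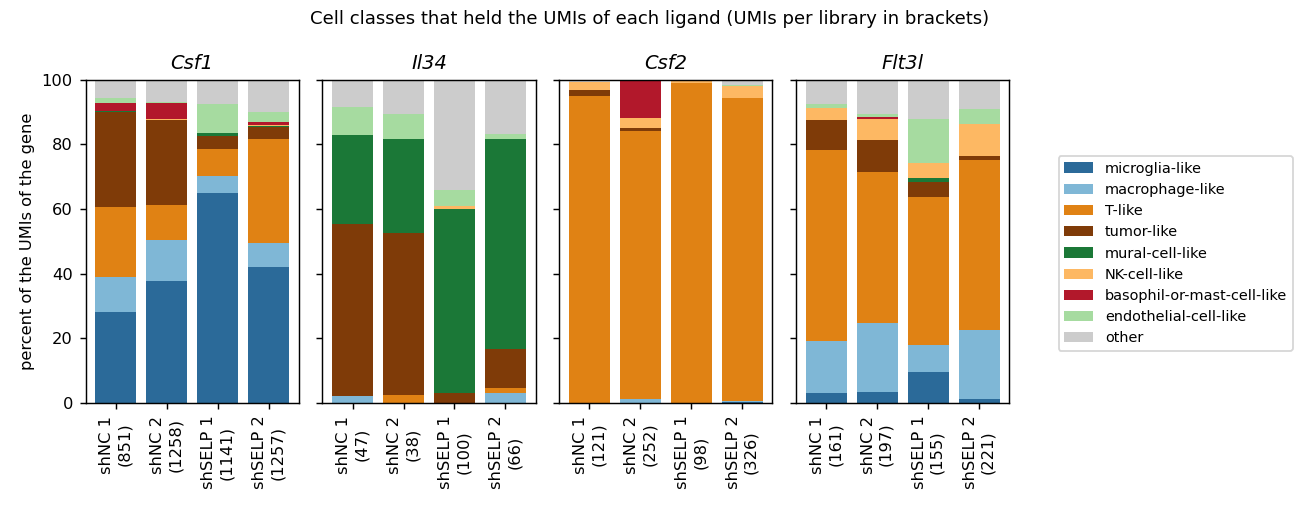
Share of each ligand's UMIs (vertical axis, percent) held by each cell class in the 4 whole-tumor libraries, with the number of UMIs in brackets. T-like cells held 82.9% to 98.98% of Csf2, while the sources of Csf1 and Il34 changed with the cell make-up of the library.

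Csf2 (chromosome 11, 54247271 to 54249667, minus strand) was close to a T-cell gene in these tumors. T-like cells held 91.2% of its 797 UMIs, at 54.5 CPM (50.6 to 58.6). By library the T-like level was 35.0 and 61.5 CPM in shNC and 39.1 and 73.2 CPM in shSELP. NK-cell-like cells had 20.5 CPM (13.2 to 30.6). All other classes of more than 17 cells were at or below 0.401 CPM. The basophil- or mast-cell-like class had 564 CPM, but its 29 UMIs came from 3 cells of the second shNC library.

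Among T-like cells, Csf2 belonged to a few clusters. The cluster led by Ccl1, a chemokine of activated T cells, had 137 CPM. By library this cluster stood at 94.1 and 128.2 CPM in shNC and at 134.2 and 157.9 CPM in shSELP. The cluster led by Gzmf, a granzyme of cytotoxic cells, had 1.85 CPM. The cluster led by Gm8369 had 142 CPM in the second shNC library and at most 9.98 CPM in the others. T-like cells of that library also carried 34.7 CPM of basophil or mast cell markers, against at most 0.609 CPM in the others. The part of such cells in this Csf2 value was not tested.

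The Ccl1 cluster was also the T-cell cluster with the most Csf1, at 129 CPM against 52.2 CPM in the Gzmf cluster. In its 535 thinned cells, Csf1 was seen in 27.3% (16.1 to 41.0) of cells with a Csf2 UMI and in 19.4% (15.9 to 23.2) of the others, intervals that overlap. The cluster made up 26.8%, 26.3%, 25.2% and 44.9% of T-like cells in the first and second shNC and the first and second shSELP libraries. Its Csf1 level was lowest in the first shSELP library, at 44.1 CPM, and highest in the second, at 177 CPM.

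The receptor chains of CSF2 were spread over all myeloid classes. Csf2ra, the CSF2-specific alpha chain (chromosome 19, 61223957 to 61228429, minus strand), was at 137 CPM (87.9 to 204.2) in neutrophil-like, 121 CPM in macrophage-like, 94.99 CPM in dendritic-cell-like and 89.4 CPM in microglia-like cells. Dendritic cells and microglia overlapped in their libraries, and neutrophils and macrophages in their intervals. Csf2rb, the shared beta chain (chromosome 15, 78325752 to 78353847, plus strand), was at 758 CPM (539 to 1036) in basophil- or mast-cell-like cells, 291 CPM in dendritic, 274 CPM in neutrophil-like, 182 CPM in macrophage-like, 168 CPM in plasmacytoid dendritic and 107 CPM in microglia-like cells. Within macrophages, one of the clusters led by Chil3 had 546 CPM, against 159.6 CPM in the cluster led by Ms4a7. The 17 basophil- or mast-cell-like cells had no Csf2ra UMI, which allows up to 71.7 CPM (95% limit).

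Csf2rb has a neighbor of nearly the same sequence, Csf2rb2, the beta chain used by IL-3 alone. In the GENCODE M21 transcripts, 18.4% of the 50-base words of Csf2rb also occurred in Csf2rb2, but none of those in its last 500 bases, the end that a 3′ library reads. Csf2rb2 stood at 505 CPM in basophil- or mast-cell-like, 157 CPM in plasmacytoid dendritic, 70.5 CPM in macrophage-like, 66.4 CPM in dendritic-cell-like and 39.5 CPM in microglia-like cells. How the authors' counting divided reads shared by the pair is not known, and both values carry that limit.

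Csf3r, the G-CSF receptor (chromosome 4, 126024550 to 126044440, plus strand), was at 526 CPM (424 to 645) in neutrophil-like cells, 67.4 CPM (62.3 to 72.9) in microglia-like cells and 38.0 CPM (36.2 to 40.0) in macrophage-like cells. The microglia and macrophage libraries did not overlap (54.5 to 76.6 against 31.6 to 44.9 CPM). Every other class had 5 UMIs or fewer, apart from 17 UMIs in dendritic-cell-like cells. Within microglia the Siglech cluster was again highest, at 102 CPM against 47.4 and 42.7 CPM in the Cst7 and Cxcl13 clusters. Its ligand gene Csf3 gave 163 UMIs in the whole mix.

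Flt3, the receptor that marks the dendritic lineage (chromosome 5, 147330741 to 147400489, minus strand), was at 93.4 CPM (60.4 to 137.8) in plasmacytoid and 86.6 CPM (79.3 to 94.4) in other dendritic-cell-like cells, intervals that overlap. B-cell-like cells came next with 1 UMI, and dendritic-cell-like cells held 88.0% of its 590 UMIs. The dendritic cluster led by Fscn1, a gene of mature migrating dendritic cells, had 143 CPM and the one led by Plet1 65.3 CPM. The order was the opposite for Csf2rb, at 187.5 and 329.6 CPM.

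Flt3l, the FLT3 ligand (chromosome 7, 45129788 to 45136432, minus strand), was low in every class. NK-cell-like cells had 41.1 CPM (30.3 to 54.5), fibroblast-like cells 41.1 CPM from 7 UMIs and T-like cells 28.0 CPM (25.3 to 31.0), with overlapping libraries. All 7 fibroblast-like UMIs came from the first shSELP library. In T-like cells it was the steadiest member of the set, at 28.9, 27.1, 28.6 and 27.7 CPM over the 4 libraries. T-like cells held 51.0% of the 734 Flt3l UMIs and macrophage-like cells 17.4%, the latter at 3.13 CPM.

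Over the 15 classes, the genes whose log2(CPM + 1) followed each member most closely were recorded as a description. The classes share libraries and depth, and a few high classes decide most of the correlations. The lists also depended on the measure. When ranked by Spearman correlation, no member kept all of its genes, and Il34, Csf2 and Csf3r kept none. For Csf1r they included the complement genes C1qc (Pearson r = 0.94) and C1qa (0.94). For Csf2rb they were Spi1, which encodes the myeloid transcription factor PU.1 (0.93), Csf2rb2 (0.92) and Alox5ap (0.89). For Il34 they were Sdc2 (0.96), Zic1 (0.92) and Dmd (0.92). For Csf2, Il13 (0.90) and Nabp1 (0.89) were among them. For Csf3r they were Lst1 (0.93), Trem1 (0.90) and Clec5a (0.89). For Csf2ra they were Ifi207 (0.94), Rab32 (0.91) and Wfdc17 (0.91). For Flt3 they were Syngr2 (0.86), Cd300c (0.83) and Otud5 (0.82), for Flt3l Pdcd4 (0.83), Zcchc11 (0.78) and Rnf125 (0.75), and for Csf1 Hibch (0.88), Plk3 (0.80) and Mapk6 (0.79).

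The comparison of shSELP with shNC tumors asked whether these levels changed within a cell class when the tumor cells carried the hairpin against SELP. Summed UMIs of each class were compared over the 4 whole-tumor libraries by edgeR's quasi-likelihood test, with Benjamini-Hochberg adjustment over all genes tested in the class. No member passed an adjusted p of 0.05 in any class. Over all genes tested, 0.88% passed in macrophage-like, 0.223% in microglia-like, 0.206% in dendritic-cell-like, 0.11% in endothelial, 0.0493% in tumor-like, 0.0413% in T-like and 0% in NK-cell-like cells, where 149 of 3639 genes had an unadjusted p under the threshold. The numbers of members that could be tested in these classes were 6, 5, 4, 1, 4, 5 and 1. Unadjusted p-values were under 0.05 for 3 members in macrophage-like cells (Csf3r, Csf1r and Csf2ra), 1 in microglia-like cells (Csf1r) and 1 in tumor-like cells (Csf1), where 14.8%, 14.05% and 19.6% of all genes tested had such a p. DESeq2 also called 0. Neutrophil-like cells, with 7 to 24 cells per library, were too few to test.

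Csf1r in microglia-like cells was at 940.3 and 829 CPM in shNC and at 1390.4 and 1175 CPM in shSELP. Both shSELP libraries stood above both shNC libraries, with means of 885 ± 78.6 and 1283 ± 152 CPM (SD, n = 2 each). The log2 fold change was 0.47 ± 0.14 (SE), with an unadjusted p of 0.00649 and an adjusted p of 0.17 (edgeR). The call changed with the handling of the data: the adjusted p was 0.0317 without the second shSELP library and 0.0226 with no filter on low counts. The Siglech cluster made up 32.4% and 23.4% of microglia-like cells in shNC and 57.9% and 33.2% in shSELP. Within that cluster Csf1r was at 1694 and 1539 CPM against 1913 and 1795 CPM, and within the Cst7 cluster at 655 and 651 CPM against 864 and 791 CPM, while the Cxcl13 cluster overlapped. The 12 microglia markers summed to 6379 and 6319 CPM in shNC and 8225 and 6598 CPM in shSELP. The 11 macrophage markers summed to 3388 and 2724 against 3426 and 2359 CPM in the same cells, and the part of either in the Csf1r difference was not tested.

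**Figure D3:**
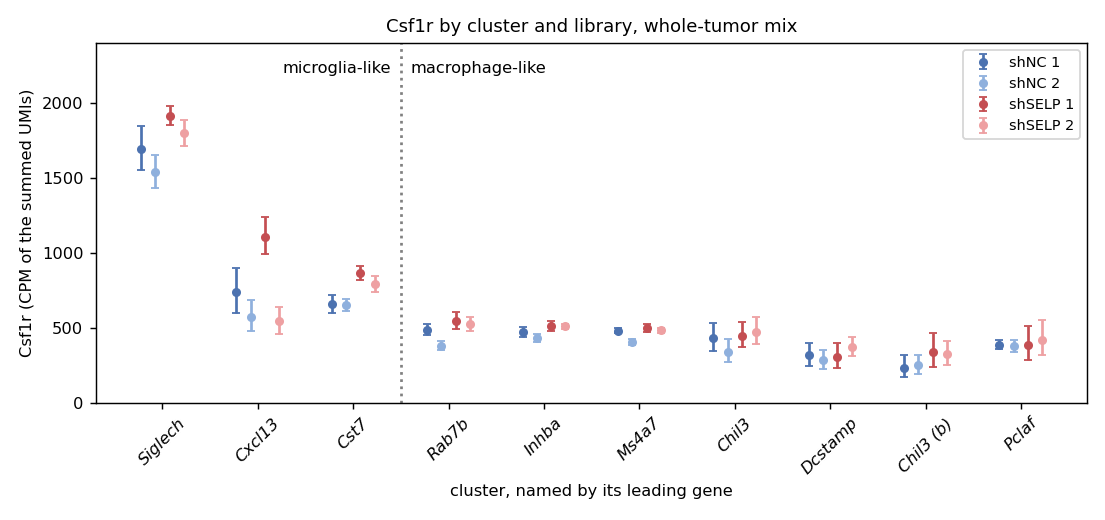
Csf1r level (vertical axis, CPM) in the microglia-like clusters (left of the dotted line) and the macrophage-like clusters (right), named by their leading gene, in each of the 4 whole-tumor libraries. Points are libraries and bars are exact 95% counting intervals. The Siglech cluster lay between 1539 and 1913 CPM, above all others, and the macrophage clusters between 234 and 547 CPM.

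In macrophage-like cells, Csf1r was at 458 and 393 CPM in shNC and at 494 and 491 CPM in shSELP, a log2 fold change of 0.28 ± 0.11 (adjusted p = 0.317, edgeR). Csf3r was at 31.6 and 33.8 CPM against 41.3 and 44.9 CPM. Its log2 fold change of 0.48 ± 0.10 had the smallest adjusted p of the set, 0.0862, and passed with no filter on low counts (0.00886). Csf2ra was at 108.6 and 115.6 against 118.0 and 136.2 CPM (0.25 ± 0.11, adjusted p = 0.321). Csf2rb overlapped between the groups, at 172.8 and 178.1 against 175.6 and 195.2 CPM (0.15 ± 0.10, adjusted p = 0.542). Csf1, at 8.11 and 16.2 against 10.4 and 6.97 CPM, also overlapped, and turned in sign without the second shNC library (from -0.47 to 0.07). Macrophage markers themselves summed to 13496 and 15954 CPM in shNC and to 18642 and 21622 CPM in shSELP, and their part in these values was not tested.

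Csf3r in microglia-like cells was at 54.5 and 58.4 CPM in shNC and at 76.6 and 67.8 CPM in shSELP, a log2 fold change of 0.29 ± 0.16 (adjusted p = 0.436, edgeR). Microglial Csf1 was at 201.3 and 209.4 against 195.4 and 243.1 CPM, a difference of 0.03 ± 0.15 that lay within the spread of the libraries. Csf2ra (-0.04 ± 0.15) and Csf2rb (-0.02 ± 0.15) overlapped as well.

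Csf1 in tumor-like cells was at 52.03 and 93.0 CPM in shNC and at 48.4 and 43.9 CPM in shSELP. The log2 fold change was -0.65 ± 0.29, with an unadjusted p of 0.0494 and an adjusted p of 0.254 (edgeR). Without the first shNC library it was -1.01, with an adjusted p of 0.00445. The class was made of different clusters in the groups: the cluster led by Col9a2 made up 65.7% and 58.5% of tumor-like cells in shNC but 41.1% and 17.5% in shSELP, the rest being a cluster led by the mitosis gene Cdc20, with a median of 2700.5 against 16110 UMIs per cell. Within the Cdc20 cluster Csf1 was at 50.2 and 66.1 against 34.6 and 27.4 CPM, and within the Col9a2 cluster at 52.7 and 100.8 against 56.6 and 73.6 CPM. The part of the cluster shares in the difference was not tested.

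In T-like cells, Csf1 was at 56.0 and 40.3 CPM in shNC and at 38.3 and 96.6 CPM in shSELP, a log2 fold change of 0.54 ± 0.32 (adjusted p = 0.624, edgeR). One library decided the direction: the value was 0.98 without the first shSELP library, with an adjusted p of 0.00176, and -0.29 without the second. Csf2 differed by 0.26 ± 0.29 and Flt3l by 0.02 ± 0.17, with overlapping groups. In NK-cell-like cells Flt3l was at 39.6 and 28.1 against 52.9 and 52.1 CPM, from 6 to 22 UMIs per library (0.66 ± 0.45, adjusted p = 0.983). In dendritic-cell-like cells Flt3 was at 89.8 and 92.3 against 73.6 and 86.9 CPM (-0.18 ± 0.18, adjusted p = 0.884), and Csf2ra at 83.3 and 88.5 against 107.6 and 100.6 CPM (0.27 ± 0.17, adjusted p = 0.819). Endothelial Csf1 differed by 0.34 ± 0.51 and was negative, at -0.47, without the second shNC library. The remaining tested values, Csf1r and Csf2ra in T-like cells, Csf1r, Il34 and Flt3l in tumor-like cells, Flt3l in macrophage-like cells and Csf1r and Csf2rb in dendritic-cell-like cells, had adjusted p-values of 0.739 to 0.992.

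**Figure D4:**
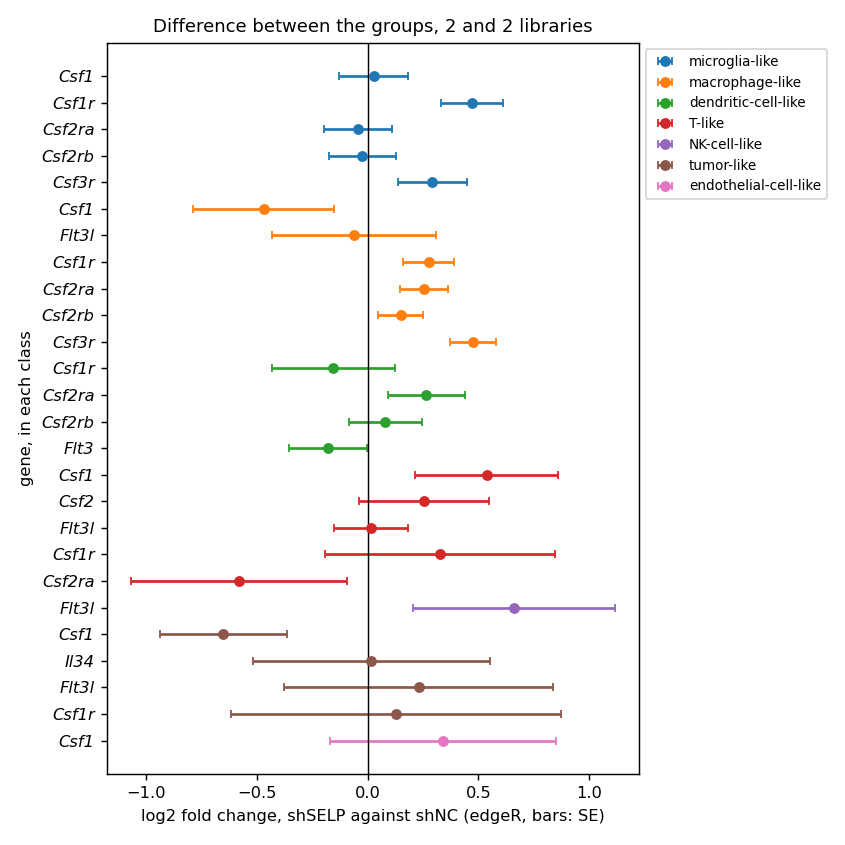
Log2 fold change of each member that could be tested (horizontal axis, shSELP against shNC, 2 libraries each) in 7 cell classes of the whole-tumor mix. Points are edgeR estimates and bars their standard errors. The values ran from -0.65 for Csf1 in tumor-like cells to 0.66 for Flt3l in NK-cell-like cells, and none passed the adjusted threshold.

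Whether microglia and macrophages responded differently was tested as an interaction in 1 fit with the library as a block. Among the members, 0 of 6 passed, where 1.18% of all genes tested did. The microglial minus the macrophage response was 0.17 ± 0.14 for Csf1r (adjusted p = 0.729, edgeR), -0.30 ± 0.16 for Csf2ra (0.525) and 0.51 ± 0.29 for Csf1 (0.551). The value for Csf1 rested on single libraries, at 0.89 with an adjusted p of 0.0135 without the first shSELP library and at -0.02 without either of the second libraries. Csf2rb2, the near copy of Csf2rb, passed at -0.89 ± 0.20 (adjusted p = 0.0401), a call lost without the first shNC (0.184), the second shNC (0.0567) or the second shSELP library (0.129), without cycling clusters (0.0822) and with cells thinned (0.628). It was at 51.2 and 46.5 CPM in shNC microglia against 37.0 and 30.5 CPM in shSELP microglia, and at 62.1 and 67.1 against 73.5 and 78.6 CPM in macrophages. The same difference for Csf2rb was -0.19 ± 0.16 (adjusted p = 0.715).

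The other genes of these pathways were read from 4 lists of 34 genes: further ligands and receptor chains (8), other binding partners of IL-34 (2), adaptors and signal proteins of CSF1R such as Tyrobp and Spi1 (13), and the JAK2 and STAT5 arm with its target genes such as Cish and Socs2 (11). Of the 30 tested in macrophage-like and the 27 tested in microglia-like cells, 0 rose and 0 fell (edgeR, adjusted p of 0.05), and 7 and 8 had an unadjusted p under 0.05, beside 14.8% and 14.05% of all genes tested. In the other 5 classes, with 19 to 25 genes tested, 0 also passed and 0 to 6 had such a p, beside 4.09% to 19.6% of all genes. DESeq2 called 1 gene in microglia, Pik3r1, a subunit of PI3-kinase (log2 fold change 0.59), and 1 in tumor-like cells, Socs3, a feedback inhibitor of cytokine signals (-1.08). In macrophages the 13 CSF1R adaptors had a median log2 fold change of 0.15 and the 11 genes of the JAK2 and STAT5 arm 0.08, beside 0.00 over all genes. In microglia the medians were 0.10 and 0.04, beside 0.01. In the interaction, 1 of 31 passed, Csf2rb2, while DESeq2 called 1 other, Tyrobp, an adaptor of myeloid receptors (-0.47).

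The CD11b+ libraries gave a second set of levels at day 21, with 1 library per group, so that these differences have no replicate check and no test. Of the cells kept, 4286 were macrophage-like, 456 microglia-like and 294 dendritic-cell-like, and 499 stayed unnamed. Csf1r was again higher in microglia-like cells (710.2 CPM, 679.1 to 742.4) than in macrophage-like cells (384 CPM, 375 to 393). Csf1 was at 155.5 CPM (141.1 to 170.9) in microglia-like against 15.1 CPM (13.3 to 17.0) in macrophage-like cells. Flt3 stood highest in a dendritic cluster of 72 cells led by Fscn1, at 179.8 CPM. Il34 gave 0 UMIs in either library, which allows 0.239 CPM in the shNC and 0.263 CPM in the shSELP library.

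Csf1r in CD11b+ macrophage-like cells was at 313 CPM in the shNC and 451 CPM in the shSELP library, a ratio of 1.44 (exact 95% interval 1.37 to 1.51). Of all genes with 100 UMIs or more in these cells, 32.2% were at least 1.2-fold higher and 14.5% at least 1.2-fold lower in the shSELP library, and Csf1r stood at their 87.9th percentile. In 8 of 9 macrophage clusters with 20 cells or more in both libraries the ratio was above 1, from 0.994 to 1.87. These clusters come from the same pair of libraries and are not separate checks. No such count was made over all genes. In microglia-like cells Csf1r was at 703 and 718 CPM, a ratio of 1.02 (0.933 to 1.12), where 22.6% of genes were at least 1.2-fold higher. Day, selection and library cannot be told apart between this table and the whole-tumor mix.

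Csf2ra went the other way from Csf1r in CD11b+ macrophages, at 148.3 CPM in shNC and 120.5 CPM in shSELP (ratio 0.813, 0.749 to 0.882). Its ratio was below 1 in 8 of 9 macrophage clusters, from 0.629 to 1.03, again from the same pair of libraries. The interval lay below 1 in 4 of them. In the mix its log2 fold change in macrophages was positive. Csf2rb had a ratio of 1.18 (1.10 to 1.27) in macrophage-like cells and 1.03 (0.801 to 1.32) in microglia-like cells. In dendritic-cell-like cells it was at 227 CPM in shNC and 345 CPM in shSELP. That ratio of 1.52 (1.16 to 2.00) stood at percentile 92.7 of the genes with 100 UMIs or more in those cells. Among genes with 100 UMIs or more in macrophage-like cells, Csf2rb stood at percentile 65.5 and Csf2ra at percentile 12.1. Csf2rb2 had a ratio of 1.49 in macrophages, with an interval above 1, and of 1.05 (0.723 to 1.52) in microglia-like cells. Csf1 had a ratio of 1.28 (1.06 to 1.56) in microglia-like cells, where it was at 136.9 and 175.6 CPM, and 0.804 (0.627 to 1.03) in macrophage-like cells. Csf3r had a ratio of 1.15 (0.935 to 1.42) in macrophage-like and 0.759 (0.499 to 1.14) in microglia-like cells, and both intervals included 1. In the mix the log2 fold change of Csf3r was positive in both classes. In dendritic-cell-like cells Flt3 counted 14 UMIs in shNC and 31 in shSELP, a ratio of 2.30 (1.19 to 4.68). In the mix its log2 fold change in this class was negative, at -0.18 ± 0.18. Csf1r in the CD11b+ dendritic-cell-like cells had a ratio of 1.78 (1.01 to 3.21) and Csf2ra 1.06 (0.721 to 1.55). Of the genes with 100 UMIs or more there, 22.7% were at least 1.2-fold higher and 26.5% at least 1.2-fold lower. Flt3 and Csf1r did not reach that minimum of UMIs. Over all CD11b+ cells, 31.4% of genes were at least 1.2-fold higher and 13.1% at least 1.2-fold lower, Csf1r and Csf2rb among the former and Csf2ra among the latter.

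Clusters were unevenly shared between the CD11b+ libraries. An unnamed cluster led by Tmem176b held 363 shNC and 101 shSELP cells, and one led by Il12b held 15 and 225. With the Il12b cluster left out, the macrophage ratio of Csf1r was 1.42. In the Tmem176b cluster Csf1r was at 384 and 449 CPM. The largest difference of Csf1r within a macrophage cluster was in that led by Ly6c2, at 272 CPM in shNC and 509 CPM in shSELP.

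**Figure D5:**
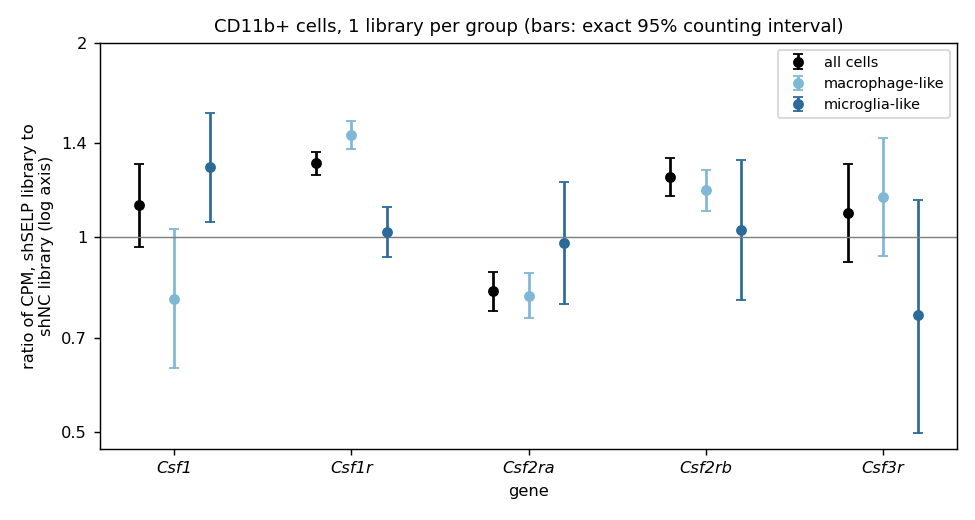
Ratio of the level in the shSELP to that in the shNC library of CD11b+ cells (vertical log axis) for 5 members, in all cells and in macrophage-like and microglia-like cells. Points are ratios of CPM and bars exact 95% counting intervals, with 1 library per group. Csf1r in macrophage-like cells lay at 1.44 and in microglia-like cells at 1.02, and Csf2ra in macrophage-like cells at 0.813.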

How the data were processed

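Deposited values were UMI counts per gene and cell, made by the authors with Cell Ranger 1.3 and mm10 (submitters' processing notes). The study's methods also name filters on genes and mitochondrial transcripts per cell, a filter on rare genes, and scaling in Seurat. The deposited tables still held cells outside those cell filters. Each library appears as 8 sequencing entries, counted once. The study drew equal numbers of cells per group, and each CD11b+ library holds 2862 cells and each mix library 2289 to 2297, other totals than its methods give. The kit version and the day of the CD11b+ experiment also differ between labels (used here) and methods, and 7 entries of the CD11b+ shSELP library carry a description naming the negative control, against their titles and genotype. Total counts per library were 17398121 to 25589350 (mix) and 11445676 to 12628177 (CD11b+). Cells with under 500 genes or over 10% mitochondrial UMIs were left out (446 of 9172, and 189 of 5724). Seurat 5.3.0 clustered them (2000 variable genes without the 9 members, 12 and 8 principal components, resolution 0.8). Clusters holding 2 marker lists were split again, a step chosen after seeing the data. Scrublet (scanpy 1.11.5) marked 0.871% of mix cells as doublets, kept in the main values, and 0.0181% of CD11b+ cells, too few to have worked.

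Class sums were tested with edgeR 4.0.16 (TMM, filterByExpr, adjusted p of 0.05) wherever all 4 libraries held 20 cells, without a replicate block. The scripts were tested on simulated data. Alternatives used DESeq2 1.42.0, no filter, each library left out, the block, thinning to 2000 UMIs, doublets out, resolutions 0.4 and 1.2, and members kept for clustering. Coordinates come from GENCODE M21 (mm10). All 9 members were named. Other pathway genes were given by counts, with values for those called and for Csf2rb2, and the 3 genes with the highest Pearson r among those of 20 CPM or more were named for members with 100 UMIs, apart from items not reported here. Clusters were named by leading gene. Members, lists and markers were chosen with earlier results of these data known, and the 1.2-fold limit after seeing the data. Intervals and floors (3 UMIs) cover counting error only.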

Additional observations from a re-analysis of the deposited data

Results flagged for a closer look

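Csf2rb2, a gene of the further receptor chains and not a member of the set, had a difference between its responses to SELP knockdown in microglia and in macrophages of -0.89 ± 0.20 on the log2 scale (edgeR interaction, adjusted p = 0.0401, 2 libraries per group). The call was lost on leaving out any of 3 of the 4 libraries (adjusted p of 0.0567 to 0.184), without cycling clusters (0.0822) and with cells thinned (0.628). It was lower in both shSELP libraries than in both shNC libraries in microglia and higher in both in macrophages, although neither class passed alone (adjusted p = 0.216 and 0.195). Groups of 2 libraries were too small to look for libraries that stand apart on a single value.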

How the results depend on the processing

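The count of members called was 0 in each class and stayed 0 under DESeq2, doublet removal, thinning, both resolutions and clustering with the members. It also stayed 0 without cycling clusters, a setting that took cells only from tumor-like, macrophage-like and T-like cells. It became 1 with no filter on low counts in macrophage-like (Csf3r) and microglia-like cells (Csf1r), and likewise with the replicate block (1 each, adjusted p = 0.0354 and 0.0469). With each library left out in turn it ran from 0 to 1 in T-like (Csf1), microglia-like (Csf1r) and tumor-like cells (Csf1) and in the interaction (Csf1). The replicate numbers share only a number: the correlation of same-numbered libraries' deviations was -0.007 to 0.103 over classes, and the block raised the genes called from 20 to 454 in microglia-like and from 96 to 425 in macrophage-like cells.

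Log2 fold changes that turned in sign did not pass the threshold where they did so. With cells thinned, these were Csf2 (-0.12) and Flt3l (-0.33) in T-like cells, Csf2rb2 in dendritic-cell-like cells (0.39), Csf1 (-0.16) and Csf2rb (0.0078) in microglia-like cells and Csf3r in the interaction (0.44). Flt3l was -0.13 in T-like cells without cycling clusters and 0.018 in macrophage-like cells without the highest Scrublet scores. Csf2rb in microglia-like cells was 0.014 with members kept for clustering. Il34 in tumor-like cells was -0.023 with the replicate block and -0.015 with no filter. Leaving out each library gave, in T-like cells, -0.29 to 0.98 for Csf1, -0.27 to 0.71 for Csf2, -0.038 to 0.072 for Flt3l and -0.27 to 0.91 for Csf1r. In dendritic-cell-like cells it gave -0.40 to 0.21 for Csf1r and -0.055 to 0.23 for Csf2rb, and in endothelial cells -0.47 to 1.48 for Csf1. In macrophage-like cells it gave -0.88 to 0.071 for Csf1 and -0.46 to 0.38 for Flt3l. In microglia-like cells it gave -0.16 to 0.21 for Csf1, -0.14 to 0.082 for Csf2ra and -0.14 to 0.0997 for Csf2rb. In the interaction it gave -0.024 to 0.90 for Csf1 and -1.46 to 0.61 for Flt3l. In tumor-like cells it gave -1.32 to 0.86 for Csf1r, -0.51 to 0.73 for Flt3l and -0.82 to 0.55 for Il34. The cause was not tested.

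The interaction of Csf2rb2 lost its call without the first shNC (-0.79, adjusted p = 0.184), second shNC (-1.02, 0.0567) or second shSELP library (-0.73, 0.129), without cycling clusters (-0.80, 0.0822) and with cells thinned (-1.01, 0.628), and DESeq2 gave it no adjusted p. In the CD11b+ libraries TMM scaling moved the Csf1r ratio to 1.22 in all cells and 1.36 in macrophage-like cells. Neutrophil-like cells could not be tested, and endothelial cells were not run thinned or without the highest Scrublet scores, having too few cells. Depth limits Il34, Flt3, Flt3l and Csf2 outside their main classes, where levels rest on a few UMIs.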
